A study of Mus musculus with 24 samples.

Results

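The circadian clock genes examined here are 10 transcripts measured in mouse cardiomyocytes, namely Arntl, Clock, Per1, Per2, Per3, Cry1, Cry2, Nr1d1, Nr1d2 and Dbp. They were taken as every probe that carries one of these gene names in the scanner files, which gave 14 of the 55681 probes and 10 of the 34844 gene names on the array. Expression was measured on 24 Agilent 1-colour arrays in 8 groups of 3, from cardiomyocytes isolated live from the heart on a Langendorff perfusion apparatus. The groups at 16 h were Top2b-/- mice given doxorubicin, Top2b-/- mice given PBS, wild-type (WT) mice given doxorubicin and WT mice given PBS, and the same 4 groups were taken at 72 h. Doxorubicin, an anthracycline that traps type II topoisomerases on DNA, was injected into the peritoneum at 25 mg/kg, and the controls received PBS by the same route. All groups share the mixed 129SvEv/C57BL/6 background, the label male and an age of 6 weeks. Top2b encodes the beta form of DNA topoisomerase II and is labelled as deleted in the heart only, and neither the Cre line behind the deletion nor the time of day of injection and collection is given in the labels. Nothing in the labels ties each array to its own animal, so the p-values cover no more than the spread among the arrays, which may be technical.

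The mammalian clock is a feedback loop of transcription that runs in most cells with a period of about a day. CLOCK and ARNTL (also called BMAL1) bind E-boxes and switch on the Per and Cry genes, whose proteins return to block CLOCK and ARNTL. In a second loop NR1D1 and NR1D2 (REV-ERB alpha and beta), themselves products of E-box genes, repress Arntl, and DBP carries the rhythm to D-box genes. In the heart the clock is known to time genes of metabolism and of ion channels, and Per1 is also known to be induced by glucocorticoids. Because these transcripts cycle, their level depends on the hour of sampling.

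Promoter windows from RefSeq (build GRCm38.p6, 250 bases before to 50 after each start) were matched by symbol for 9 of the 10 genes, all but Per2, in 13 windows. They are shown because E-boxes and D-boxes are the elements through which these genes regulate each other. A link between these letters and the direction of any change below was not tested. Capitals mark the motifs searched on both strands: the E-box CACGTG, its variant CACGTT, which reads AACGTG on the other strand, the D-boxes TTATGTAA and TTACGTAA, and the RORE, the element that REV-ERB and ROR proteins share. Of 32851 RefSeq promoter windows of the same length, 7.15% held CACGTG, 4.68% CACGTT, 0.938% TTATGTAA, 0.119% TTACGTAA and 0.384% the RORE. The windows of Clock, Dbp and Nr1d2 held none of these letters, which says nothing of elements elsewhere.
Per1 (chr11:69098753-69098818, plus strand): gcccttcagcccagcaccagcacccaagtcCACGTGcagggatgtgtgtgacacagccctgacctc
Cry1 (chr10:85185079-85185163, minus strand): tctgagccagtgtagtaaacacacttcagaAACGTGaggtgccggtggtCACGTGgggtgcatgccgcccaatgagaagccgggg
Cry2 (chr2:92434200-92434265, minus strand): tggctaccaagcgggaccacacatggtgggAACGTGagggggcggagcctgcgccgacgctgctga
Nr1d1 (chr11:98775391-98775414, minus strand): acagatctcAACGTGccggctgct
Per3 (chr4:151044786-151044900, minus strand): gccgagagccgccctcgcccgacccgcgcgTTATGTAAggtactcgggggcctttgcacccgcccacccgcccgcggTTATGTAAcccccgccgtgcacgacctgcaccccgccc
Arntl (chr7:113207528-113207556, plus strand): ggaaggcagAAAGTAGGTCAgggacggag
The Per1, Cry1, Cry2 and Nr1d1 windows thus carried an E-box or its variant, Per3 carried D-boxes, and Arntl carried the RORE just past its start. A match is a description of letters and not of binding.

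Between 42.9% and 52.6% of spots per array were well above background, and the 75th percentile of processed intensity ranged from 146 to 282. Levels below are log2 processed intensity relative to that percentile of the same array, so they compare arrays within a probe and not genes with each other. Top2b had a level of 2.13 to 3.34 on the 12 Top2b-/- arrays, against 3.25 to 4.39 on the 12 WT arrays. It was lower on every Top2b-/- array than on every WT array of the same time, and RNA remained well above background throughout. On 4 arrays at 16 h the genotype characteristic differs from the title, which was used (Top2b-/- doxorubicin replicate 1, Top2b-/- PBS replicate 3, WT doxorubicin replicate 1 and WT PBS replicate 3). Transcripts of Ddx3y, which lies on the Y chromosome, were detected on 7 arrays and not on 17, although all are labelled male. Those 7 include all 3 WT PBS arrays at 16 h and no Top2b-/- PBS array of that time. All 8 cardiomyocyte markers were well above background on every array. The same held for all 8 endothelial markers and all 6 markers listed for smooth muscle, and for 6 to 8 of 8 fibroblast markers. In bulk samples such as these, fewer cells of a type and less RNA per cell cannot be told apart.

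At 16 h, 0 of the 9 clock genes tested changed with doxorubicin in Top2b-/- cardiomyocytes, where a call means an adjusted p under 0.05 in limma over all 18751 genes. Of all genes 0% were called in this comparison, and 791 genes (4.22%) had an unadjusted p under 0.05. Per3 was not well above background on any of the 12 arrays of this time and was not tested. Per2, a period repressor, had levels of -3.05, -3.34 and -3.71 on the Top2b-/- doxorubicin arrays, against -4.06, -3.09 and -3.49 on the Top2b-/- PBS arrays. These ranges overlapped, with a difference of 0.18 ± 0.26. Per1 had levels of 3.62, 3.33 and 2.63 with doxorubicin and 2.11, 3.43 and 2.83 with PBS, again overlapping, with a difference of 0.41 ± 0.34. Cry2, a cryptochrome, had levels of 3.23, 2.98 and 2.80 with doxorubicin and 2.92, 3.19 and 2.98 with PBS, a difference of -0.03 ± 0.14. Nr1d1 had levels of 0.90, 1.33 and 1.52 with doxorubicin and 1.23, 1.47 and 1.41 with PBS in Top2b-/- cells, a difference of -0.12 ± 0.30.

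Arntl, the activator, had levels of 0.95, 1.69 and 1.51 with doxorubicin and 1.79, 0.47 and 1.47 with PBS in Top2b-/- cells at 16 h, with a difference of 0.14 ± 0.52. Replicate 2 of the PBS group was the low array for Arntl and the high array for Dbp, at 4.65. Clock (-0.00 ± 0.15), Nr1d2 (0.25 ± 0.24), Dbp (-0.31 ± 0.38) and Cry1 (-0.59 ± 0.38) all had adjusted p-values that round to 1 (limma).

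In WT cardiomyocytes 4 of the 9 clock genes tested changed with doxorubicin at 16 h. The repressors Per2, Per1 and Cry2 rose and Nr1d1, the repressor of Arntl, fell. Of all genes 27.8% were called in this comparison, 13.7% higher and 14.1% lower. The median log2 difference was 0.12 over the 9 clock genes and -0.02 over all genes.

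**Figure D1:**
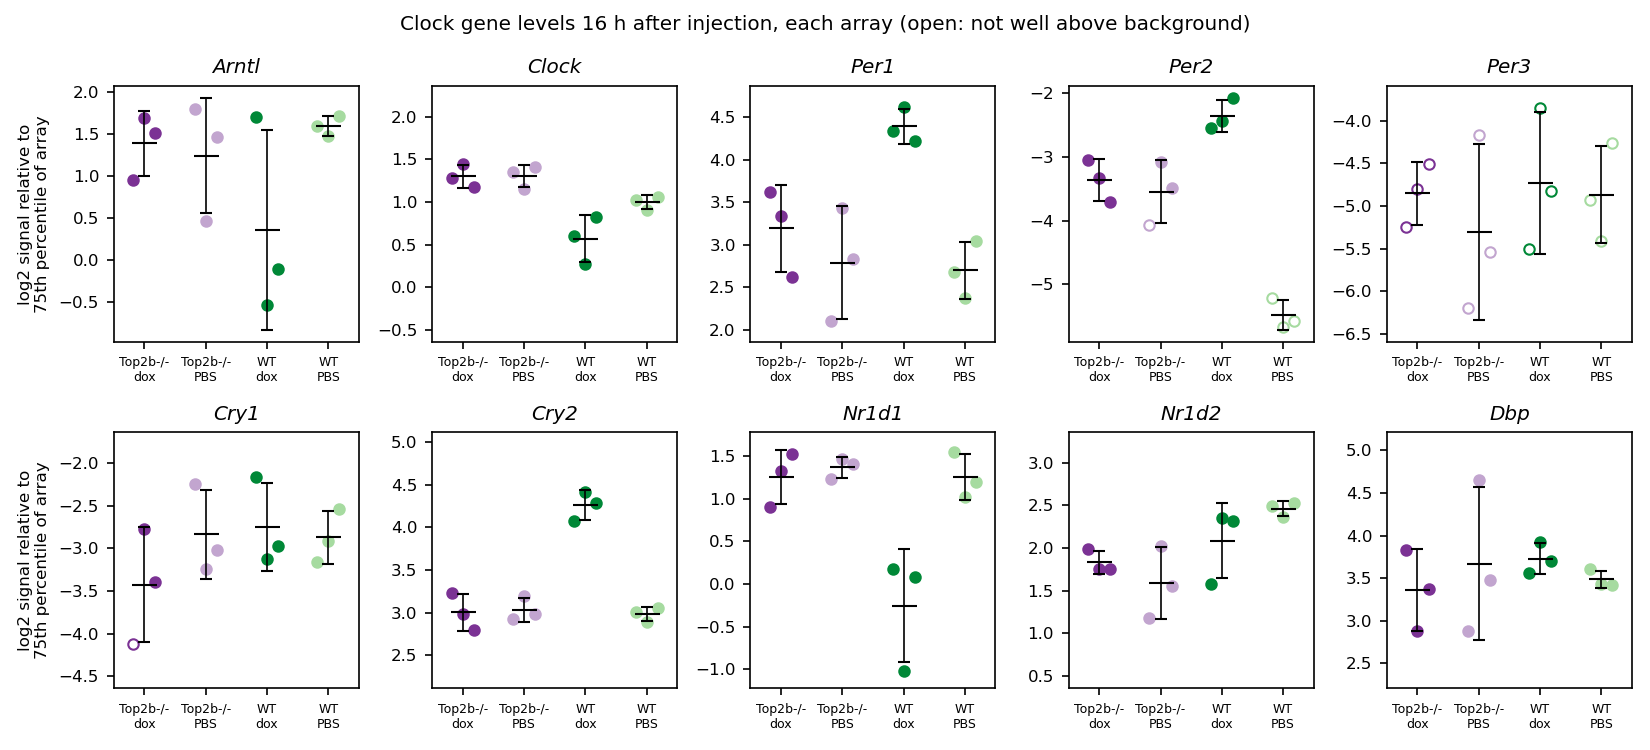
Levels of the 10 clock genes on the 12 arrays taken 16 h after injection, as log2 signal relative to the 75th percentile of each array. Points are arrays, open where the probe was not well above background, and bars are the mean ± SD of 3 arrays. Per1, Per2 and Cry2 lie higher, and Nr1d1 lower, on the 3 WT doxorubicin arrays than on the other 9.

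Per2 encodes a repressor that binds CLOCK and ARNTL and that is also an early responder to light and stress in other settings; its probe lies at chr1:93313046-93313105 (mm9, minus strand). At 16 h its level was -2.55, -2.44 and -2.07 on the WT doxorubicin arrays, against -5.22, -5.66 and -5.57 on the WT PBS arrays. Every treated array was above every control array, and the probe was not well above background on any WT PBS array, so only a bound can be given: Per2 was at least 2.25-fold higher (fitted log2 difference, 3.13 ± 0.26 (SE), adjusted p = 5.8e-05, limma). With a normexp background the difference was 0.68, which still passed (adjusted p = 0.00107, limma) but is smaller than that bound, 1.17 on the log2 scale. The normexp setting adds an offset of 50 to every spot's intensity, which by itself shrinks differences of dim probes. The parts of the offset and of the background method were not tested apart. Per1, a further period repressor, had levels of 4.33, 4.62 and 4.22 with doxorubicin and 2.68, 2.38 and 3.05 with PBS in WT cells (probe at chr11:68923364-68923423). The groups did not overlap, and the increase was 1.69 ± 0.34 on the log2 scale or 3.23-fold (adjusted p = 0.00488, limma). A second Per1 probe was not well above background on any of the 24 arrays.

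Cry2, a cryptochrome that represses CLOCK and ARNTL together with the PER proteins, had levels of 4.08, 4.42 and 4.29 on the WT doxorubicin arrays at 16 h, against 3.01, 2.89 and 3.05 on the WT PBS arrays. The treated arrays were tight and all above the controls, with a log2 difference of 1.28 ± 0.14, or 2.43-fold (adjusted p = 0.000231, limma; probe at chr2:92243807-92243866). The second Cry2 probe, at chr2:92251417-92251476, gave 1.47 ± 0.29 (adjusted p = 0.00469 over probes, limma). Its paralogue Cry1 did not pass the threshold. Cry1 had levels of -2.16, -3.12 and -2.97 with doxorubicin and -3.16, -2.91 and -2.54 with PBS in WT cells, so the groups overlapped and the difference was 0.12 ± 0.38 (adjusted p = 0.846, limma). The difference between the responses of Cry2 and Cry1 was not tested.

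Nr1d1, the nuclear receptor REV-ERB alpha, was measured by a probe that spans chr11:98630526-98631028. At 16 h it had levels of 0.17, -1.02 and 0.09 on the WT doxorubicin arrays and 1.55, 1.02 and 1.20 on the WT PBS arrays. All treated arrays were below all controls, and the log2 difference was -1.51 ± 0.30 (adjusted p = 0.00427, limma). WT doxorubicin replicate 1 and all 3 WT PBS arrays carried Y-linked transcripts, and WT doxorubicin replicates 2 and 3 did not. Among arrays with these transcripts, which sets replicate 1 alone against the 3 PBS arrays, the Nr1d1 difference was -1.08 and missed the threshold (adjusted p = 0.0556, limma). Nr1d2, REV-ERB beta, had levels of 1.58, 2.35 and 2.32 with doxorubicin and 2.50, 2.36 and 2.52 with PBS in WT cells on its brighter probe, which the files place on chromosome 19, away from Nr1d2. Replicate 1 was low and the other treated arrays were near the controls, with a difference of -0.38 ± 0.24 (adjusted p = 0.272, limma). The other Nr1d2 probe, on chromosome 14, gave 0.06 ± 0.26 (adjusted p = 0.883 over probes, limma). With replicate 1 alone against the PBS arrays, as above, the brighter probe gave -0.88 and passed (adjusted p = 0.0347, limma).

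Neither activator passed the threshold in WT cells at 16 h. Arntl, the partner of CLOCK, had levels of 1.71, -0.53 and -0.11 on the WT doxorubicin arrays, against 1.59, 1.47 and 1.72 on the WT PBS arrays (probe at chr7:120457261-120457320). Replicates 2 and 3 were below every control and replicate 1 was within the controls, for a log2 difference of -1.24 ± 0.52 (adjusted p = 0.101, limma). Without WT doxorubicin replicate 1 the difference was -1.91 and passed (adjusted p = 0.00388, limma). The low arrays, replicates 2 and 3, are those without Y-linked transcripts, and replicate 1 alone against the PBS arrays gave 0.11, of the opposite sign (adjusted p = 0.866, limma). The part of that status in the Arntl difference was not tested. That replicate is 1 of the 4 arrays with disagreeing genotype fields, yet it shared the direction of Per2, Per1, Cry2 and Nr1d1 with the other treated arrays. Clock had levels of 0.60, 0.28 and 0.83 with doxorubicin and 1.03, 0.90 and 1.06 with PBS. All 3 treated arrays were below the controls, by 0.43 ± 0.15 on the log2 scale (adjusted p = 0.0557, limma). Without WT doxorubicin replicate 3 the Clock difference was -0.56 and passed (adjusted p = 0.0124, limma). With all arrays and quantile normalization it was -0.41 and also passed (adjusted p = 0.0399, limma).

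Dbp, the PAR bZIP factor that drives D-box genes, had levels of 3.56, 3.92 and 3.70 on the WT doxorubicin arrays at 16 h, against 3.60, 3.43 and 3.42 on the WT PBS arrays. The groups overlapped and the difference was 0.24 ± 0.38 (adjusted p = 0.671, limma). Without the 4 arrays whose genotype fields disagree, Per2 (3.18), Per1 (1.89), Cry2 (1.41) and Nr1d1 (-1.75) still passed in WT cells, and Arntl passed too (-1.85, adjusted p = 0.0293, limma). With the genotype taken from the characteristic field in place of the title, 0 clock genes passed, and 0 genes of the whole array. By title, and not by that field, Top2b levels separated at 16 h, at 2.54 to 3.34 in Top2b-/- and 4.03 to 4.39 in WT. The 6 markers listed for smooth muscle were Acta2, Myh11, Tagln, Cnn1, Rgs5 and Des, the last of which is not confined to it. In the WT comparison at 16 h their summed linear level was 94.1 to 105 with doxorubicin, against 151 to 184 with PBS. Members with high levels weigh most in such a sum. In that comparison 4 of those 6 fell, as did 4 of 7 fibroblast markers, 2 of 8 endothelial markers and 1 of 8 cardiomyocyte markers. There 3 of 4 neutrophil markers rose, with 4 of 6 neutrophil markers above background on every treated array. Of these, S100a8 was well above background at 16 h only on the WT doxorubicin arrays, so that group alone brought it into the test. The summed neutrophil levels overlapped, at 66.7 to 99.5 with doxorubicin and 80.5 to 82.5 with PBS. Of all genes 13.7% were called higher and 14.1% lower. The summed fibroblast levels overlapped, at 22.0, 50.3 and 29.2 with doxorubicin and 35.8, 29.0 and 24.2 with PBS. The part of cell content in the clock gene differences was not tested.

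The difference between the genotypes' doxorubicin responses at 16 h was tested directly, as the Top2b-/- response minus the WT response. All 3 Top2b-/- doxorubicin arrays and 1 Top2b-/- PBS array were on slide 2 of that time, and the other 2 Top2b-/- PBS arrays and all 6 WT arrays on slide 1, so the Top2b-/- response runs across slides. It passed for 2 of the 9 clock genes, against 11.4% of all genes in either direction (6.17% positive and 5.27% negative), and both were negative. For Cry2 it was -1.31 ± 0.20 (adjusted p = 0.00418, limma), and the second Cry2 probe gave -1.71 ± 0.42 (adjusted p = 0.027 over probes, limma). For Per2 the fitted value was -2.95 ± 0.37 (adjusted p = 0.00173, limma), which uses WT PBS levels that are not well above background. With a normexp background and its offset of 50 in place of the scanner's background, the Per2 value was -0.66 and still passed (adjusted p = 0.0207, limma). With the slide as a block Cry2 had -1.26 (adjusted p = 0.048, limma) and Per2 -3.001 (adjusted p = 0.0219, limma).

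Nr1d1 (1.39 ± 0.42, adjusted p = 0.0566, limma), Per1 (-1.28 ± 0.48, adjusted p = 0.11) and Arntl (1.38 ± 0.73, adjusted p = 0.244) did not pass, so their responses were not shown to differ between the genotypes. Leaving out WT doxorubicin replicate 1 gave 2.06 for Arntl (adjusted p = 0.0207, limma) and 1.60 for Nr1d1 (adjusted p = 0.0293, limma). Nr1d1 also passed without WT doxorubicin replicate 3, at 1.56 (adjusted p = 0.0272, limma), and with a normexp background, at 1.04 (adjusted p = 0.0433, limma). The median difference of responses was -0.55 over the 9 clock genes and 0.00038 over all genes.

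**Figure D2:**
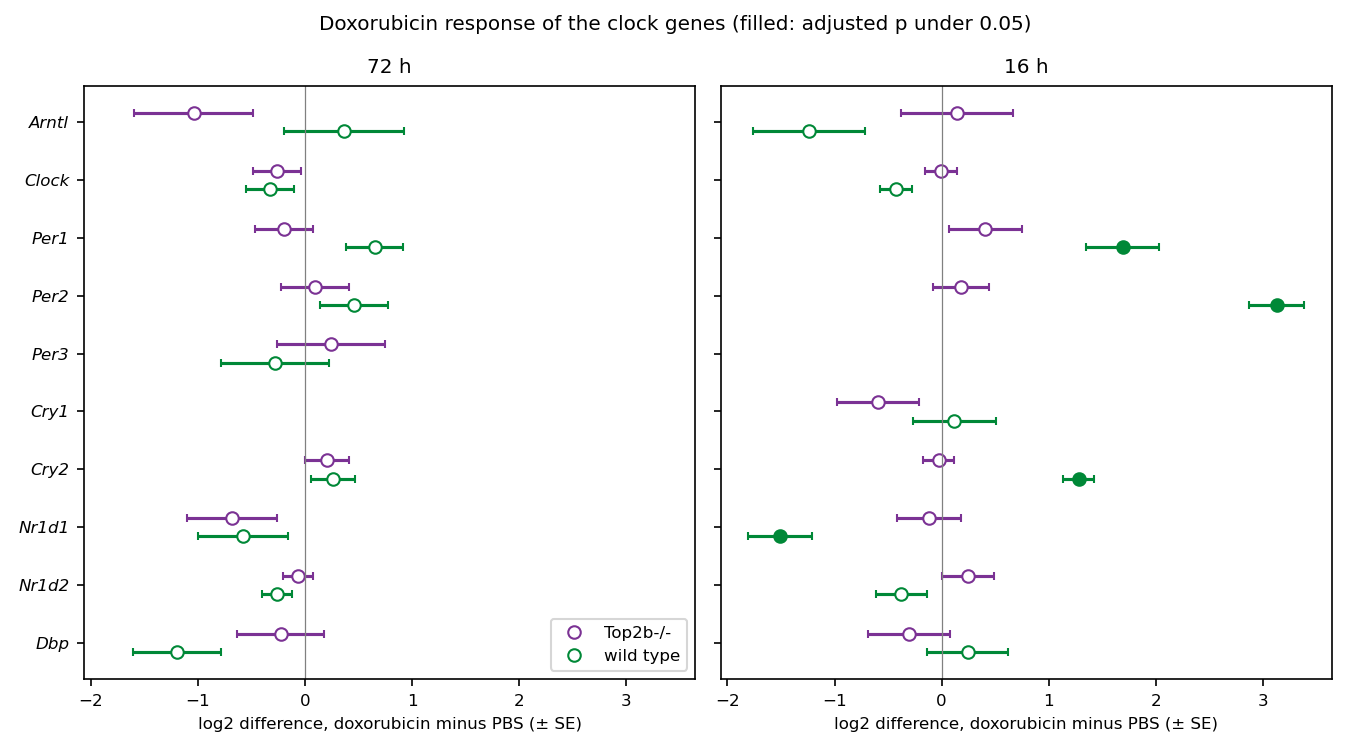
Log2 difference between doxorubicin and PBS for each clock gene at 72 h (left) and 16 h (right) in Top2b-/- and WT cardiomyocytes. Points are limma estimates from 3 arrays a group with SE bars, filled where the adjusted p was under 0.05, and a gene with no point was not tested at that time. The filled points are Per1, Per2, Cry2 and Nr1d1 of WT at 16 h.

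At 72 h no clock gene passed the threshold for doxorubicin in either genotype. Of 9 tested members, Per3 now included and Cry1 left out as dim, 0 were called in Top2b-/- cells, as were 0% of 19672 genes, with 429 (2.18%) at an unadjusted p under 0.05 (limma). In WT cells 0 members were called, against 2.69% of all genes (0.946% higher and 1.75% lower), and 4782 genes had an unadjusted p under 0.05.

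Dbp had the largest WT difference among the 9 members at 72 h. In Top2b-/- cells Dbp was 4.93, 5.94 and 5.80 with doxorubicin and 5.21, 6.35 and 5.80 with PBS, a difference of -0.23 ± 0.41. Its levels were 5.40, 4.62 and 3.996 on the WT doxorubicin arrays and 6.20, 5.84 and 5.56 on the WT PBS arrays. The treated arrays were all below the controls, by 1.19 ± 0.41 on the log2 scale (adjusted p = 0.112, limma). Per1 had levels of 4.88, 4.93 and 3.76 on the WT doxorubicin arrays, against 3.999, 3.75 and 3.88 on the WT PBS arrays at 72 h. Replicates 2 and 3 were high and replicate 4 was within the controls, for a difference of 0.65 ± 0.27 (adjusted p = 0.172, limma).

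The replicates of 72 h were hybridised on separate slides, with replicates 2 and 3 on the first and replicate 4 on the other. Within the first slide the WT Per1 difference was 1.03 (adjusted p = 0.0347, limma), and on the other, with 1 array a group, it was -0.12. Without WT doxorubicin replicate 4 alone it was 1.03 (adjusted p = 0.0476, limma). In Top2b-/- cells Nr1d1 was 0.86, 0.56 and 1.28 with doxorubicin and 1.26, 2.02 and 1.46 with PBS, a difference of -0.68 ± 0.42. In WT cells Nr1d1 was 2.23, 0.87 and 0.33 with doxorubicin and 1.49, 1.97 and 1.71 with PBS, so replicate 2 was above and the other arrays below the controls.

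Neither activator passed the threshold for doxorubicin at 72 h. Arntl had levels of -1.25, -3.19 and -1.92 on the Top2b-/- doxorubicin arrays, against -0.05, -1.56 and -1.63 on the Top2b-/- PBS arrays, a difference of -1.04 ± 0.56, the largest of the 9 members in that comparison. In WT cells Arntl was -0.87, -1.39 and -0.55 with doxorubicin and -1.49, -1.82 and -0.60 with PBS, overlapping, with a difference of 0.36 ± 0.56. Clock, Per2, Per3, Cry2 and Nr1d2 had Top2b-/- differences between -0.26 and 0.24 and WT differences between -0.32 and 0.45. The difference between the genotypes' responses was called for 0 of the 9 members and 0% of all genes at 72 h, with 1389 genes at an unadjusted p under 0.05 (limma).

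**Figure D3:**
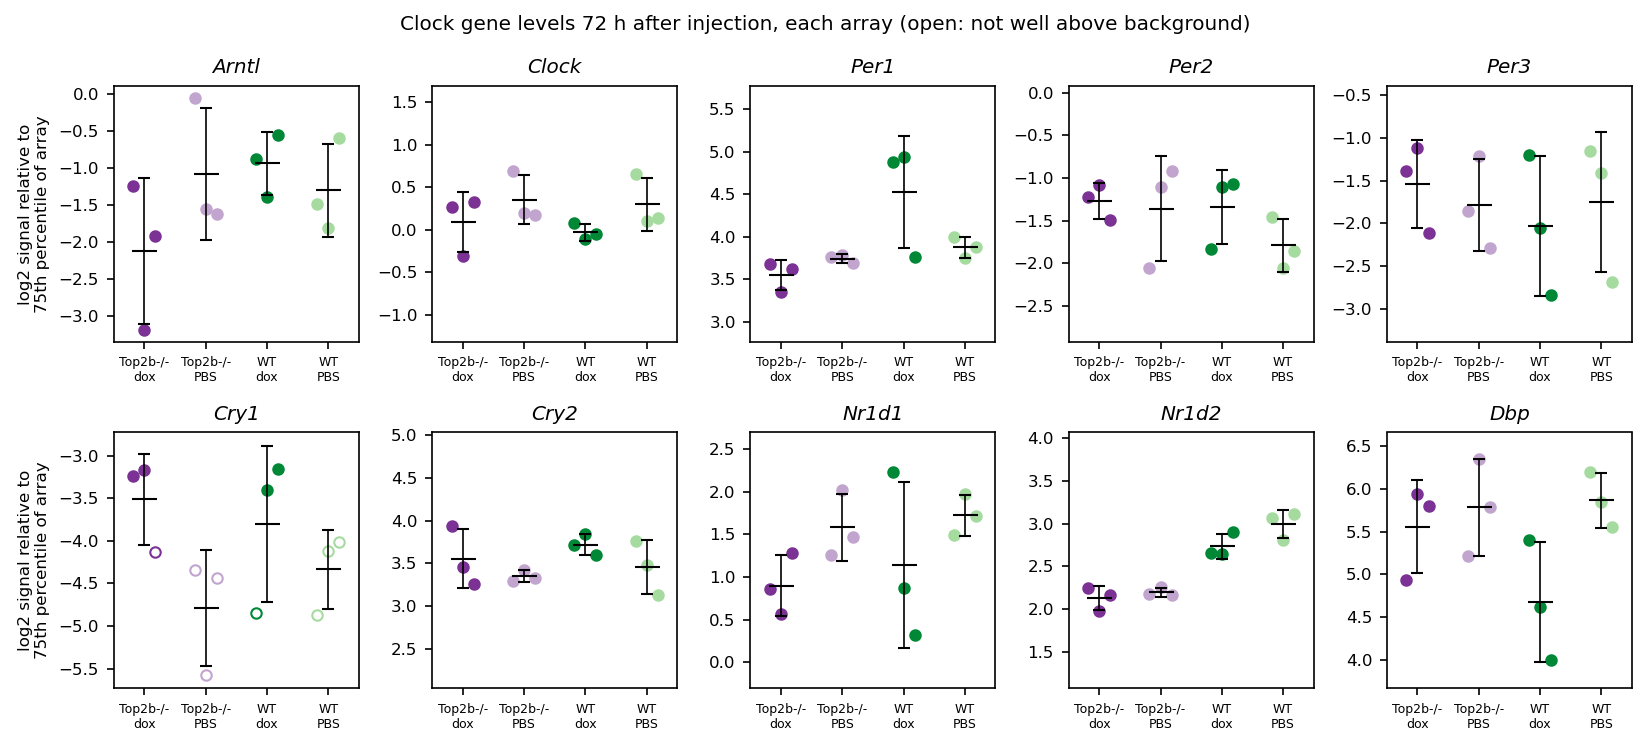
Levels of the 10 clock genes on the 12 arrays taken 72 h after injection, as log2 signal relative to the 75th percentile of each array. Points are arrays, open where the probe was not well above background, and bars are the mean ± SD of 3 arrays. Dbp lies lower on the 3 WT doxorubicin arrays than on the 3 WT PBS arrays, and Nr1d2, plotted from its brighter probe on chromosome 19, lies lower on all 6 Top2b-/- arrays than on the 6 WT arrays. On the chromosome 14 probe for Nr1d2, which is not plotted, the genotypes overlap, at 1.17 to 1.99 on the Top2b-/- arrays and 1.03 to 1.82 on the WT arrays.

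The WT doxorubicin response was also compared between the times, as the response at 72 h minus the response at 16 h, over 20050 genes in a single fit of all 24 arrays. It passed for 2 of the 10 members, against 5.6% of all genes (2.08% positive and 3.52% negative). Cry2 had a value of -1.02 ± 0.25 (adjusted p = 0.0217, limma) and Per2 a fitted value of -2.67 ± 0.42 (adjusted p = 0.00134, limma). The Per2 value rests on WT PBS arrays of 16 h that are not well above background. With a normexp background, whose offset of 50 shrinks differences of dim probes, the Per2 value was -0.47 and did not pass (adjusted p = 0.301, limma). For Cry2, leaving out WT PBS replicate 2 of 16 h, WT doxorubicin replicate 2 of 16 h or WT PBS replicate 2 of 72 h moved the adjusted p to between 0.0503 and 0.0663, with values of -0.97, -0.94 and -0.86. Dbp (-1.44 ± 0.59, adjusted p = 0.166), Per1 (-1.04 ± 0.45, adjusted p = 0.195) and Arntl (1.60 ± 0.80, adjusted p = 0.266) did not pass.

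Between the genotypes under PBS at 16 h, 2 of the 9 members passed, Per2 and Nr1d2, against 12.5% of all genes (6.77% higher and 5.68% lower). Nr1d2 passed only on its brighter probe, which the files place on chromosome 19. Its chromosome 14 probe gave 0.02 ± 0.26 (adjusted p = 0.969 over probes, limma). The genotype comparisons under PBS share their PBS arrays with the doxorubicin responses above. Per2 had levels of -4.06, -3.09 and -3.49 in Top2b-/- cells, with 2 of the 3 arrays well above background, against -5.22, -5.66 and -5.57 in WT cells, with none. The groups did not overlap (means -3.55 ± 0.49 and -5.48 ± 0.23 (SD), adjusted p = 0.00148, limma), but no fold is given because the Top2b-/- mean is below the lowest signal counted as above background in WT. With a normexp background, whose offset of 50 shrinks differences of dim probes, the Per2 difference was 0.14 and did not pass (adjusted p = 0.425, limma). All 3 WT PBS arrays, and none of the Top2b-/- PBS arrays, carried Y-linked transcripts at this time, so the genotype and that status cannot be told apart within PBS. The summed level of 8 fibroblast markers was 45.4 to 96.9 in Top2b-/- PBS cells and 24.2 to 35.8 in WT PBS cells at 16 h, and 4 of the 7 tested were higher in Top2b-/-, while 2 of 8 endothelial markers were lower. Their part in the Per2 and Nr1d2 differences was not tested.

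Nr1d2 was lower in Top2b-/- than in WT cells under PBS at both times on its brighter probe. At 16 h the levels were 1.18, 2.02 and 1.55 in Top2b-/- cells and 2.50, 2.36 and 2.52 in WT cells, a difference of -0.88 ± 0.24 (adjusted p = 0.0388, limma). At 72 h they were 2.17, 2.26 and 2.16 in Top2b-/- cells and 3.07, 2.82 and 3.12 in WT cells, a difference of -0.80 ± 0.14 (adjusted p = 0.0146, limma). It was the single member called there, against 2.15% of all genes (1.07% higher and 1.08% lower). With the replicate number as a block, 909 genes were called there, against 423 without it, and Nr1d2 still passed. The genotypes did not overlap at either time.

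The 2 Nr1d2 probes disagreed on this. The files place the brighter probe at chr19:40271435-40271494 (mm9), on another chromosome than Nr1d2, and the other probe at chr14:19037253-19037312, 1.77 Mb from the Top2b probe. The chromosome 14 probe gave 0.02 ± 0.26 at 16 h and 0.14 ± 0.24 at 72 h for Top2b-/- against WT under PBS, with adjusted p-values over probes of 0.969 and 0.895 (limma). The Nr1d2 difference between genotypes is therefore a result of the probe on chromosome 19 only, and which transcript that probe reads was not tested. Leaving out 1 array at a time lost the call for Nr1d2 in 7 of 12 fits at 16 h and in 4 of 12 at 72 h. Its values in those fits were between -0.93 and -0.67 at 16 h and between -0.83 and -0.77 at 72 h.

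The arrays of 72 h stood far from those of 16 h for several members under PBS, where no drug was given. Each time has slides of its own, so time and slide cannot be told apart, and these values are a description with no test. Arntl averaged -1.08 in Top2b-/- cells at 72 h and 1.24 at 16 h, a difference of -2.32, and 1.23% of 20050 genes differed by as much in either direction. In WT cells it averaged -1.30 at 72 h and 1.59 at 16 h, a difference of -2.90 (0.374% of genes). Dbp differed the other way, by 2.12 in Top2b-/- cells (1.73% of genes) and 2.38 in WT cells (1.12%).

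Per3 and Per2 were also higher at 72 h under PBS. Per3, the period member least needed for the core loop in mice, was above background on all 12 arrays of 72 h and on none of 16 h, so only bounds can be given. It was at least 4.23-fold higher at 72 h than at 16 h in Top2b-/- cells and at least 3.43-fold higher in WT cells. Per2 was at least 3.32-fold higher at 72 h in WT cells, where no PBS array of 16 h was above background. In Top2b-/- cells, where 2 of the 3 were, Per2 differed by 2.19 on the log2 scale. Per1 differed by 0.96 in Top2b-/- and 1.17 in WT cells. Cry1 differed the other way and was not above background on any PBS array of 72 h. It was at least 2.32-fold lower at 72 h in Top2b-/- cells and at least 1.61-fold lower in WT cells. These bounds for Per3, Per2 and Cry1 use the scanner's background, and no other background was tried for them. For the WT Per2 response at 16 h, a normexp background with its offset of 50 gave a value (0.68) below its bound (1.17 on the log2 scale). Clock differed by -0.95 in Top2b-/- and -0.70 in WT cells. The median over all genes was -0.08 in both genotypes. Arntl and Dbp thus differed in opposite directions between the times in both genotypes.

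**Figure D4:**
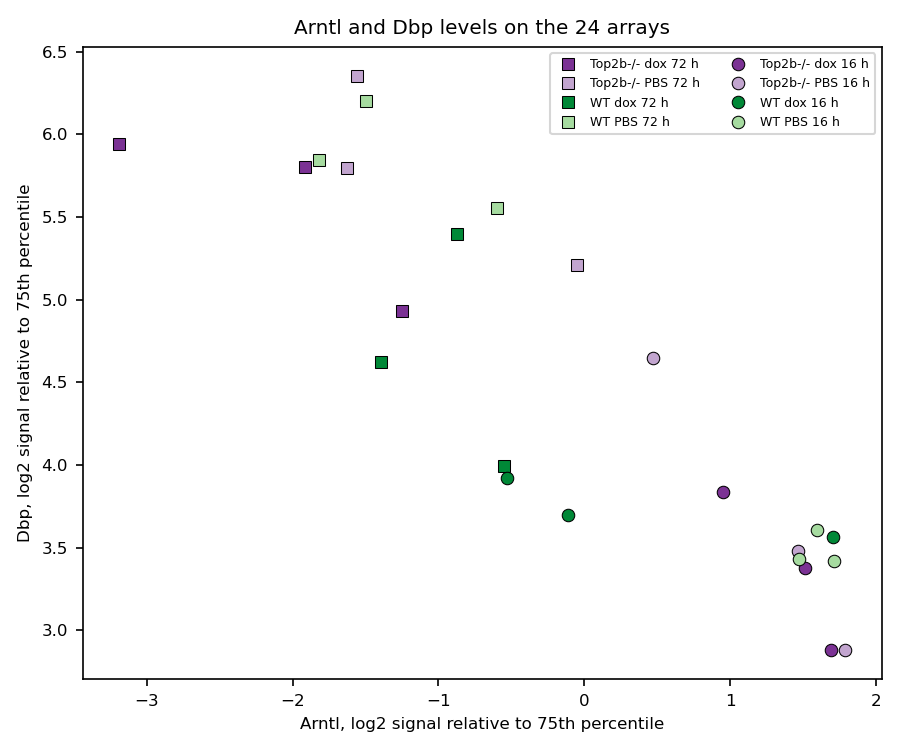
Arntl level against Dbp level on the 24 arrays, each as log2 signal relative to the 75th percentile of the array, with squares for 72 h and circles for 16 h. The arrays of 72 h lie at an Arntl level under 0 and a Dbp level of 3.996 to 6.35, and those of 16 h at a Dbp level of 2.88 to 4.65. The WT doxorubicin arrays of 16 h lie apart from each other in Arntl, at 1.71, -0.53 and -0.11.

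The array with the lowest Arntl of its group was also the array with the highest Dbp in 3 of 4 groups at 16 h, all but WT PBS, and in 1 of 4 groups at 72 h, Top2b-/- with doxorubicin, a tally made after the values were seen. At 16 h the Top2b-/- PBS array with the lowest Arntl of its group (0.47) had the highest Dbp (4.65), and the Top2b-/- doxorubicin array with the lowest Arntl (0.95) had the highest Dbp (3.83). The genes whose level followed each member most closely over the 24 arrays, after the mean of each time was removed, were sought among 18262 genes by Pearson correlation, as a description. For Arntl these were Sh3bp5 (0.73), Tex10 (0.71) and Twf2 (0.69). For Dbp the closest named genes were Mfap3l (0.73) and Paqr7 (0.70), and for Nr1d1 they were Pvrl2 (0.86), Unc45b (0.85) and Dysf (0.83). Genes on these arrays share array, slide and group differences.

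Of 22 further clock regulators on the array, a list of kinases, ligases, PAR bZIP factors and other modulators of the loop, 20 were tested at 16 h. In Top2b-/- cells 0 of the 20 were called with doxorubicin, as were 0% of all genes. In WT cells 7 rose and 2 fell with doxorubicin, against 13.7% of all genes higher and 14.1% lower, and the median was 0.16, against -0.02 over all genes. Tef, a PAR bZIP factor like Dbp, rose by 1.34 ± 0.17, to 6.75 ± 0.21 (SD) with doxorubicin, against 5.41 ± 0.11 with PBS (adjusted p = 0.000459, limma). Sirt1, a deacetylase that acts on ARNTL and PER2, rose by 0.98 ± 0.15 (adjusted p = 0.00129, limma). Rora, the activator of Arntl through the RORE, rose by 0.92 ± 0.15 (adjusted p = 0.0015).

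Bhlhe41 (DEC2, a repressor at E-boxes) rose by 1.86 ± 0.45 (adjusted p = 0.0124), Usp2 by 0.86, and Timeless by 0.99. Gm129, now named Ciart, a repressor of CLOCK and ARNTL, was not well above background in WT PBS cells and was at least 1.88-fold higher with doxorubicin (adjusted p = 0.016, limma). Its promoter window is shown because it held more E-boxes, 3, than that of any member.
Ciart (chr3:95882237-95882374, minus strand): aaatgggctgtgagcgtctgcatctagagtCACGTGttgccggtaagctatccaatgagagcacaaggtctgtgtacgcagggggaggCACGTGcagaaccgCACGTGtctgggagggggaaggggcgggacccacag
Arntl2, a paralogue of Arntl, fell by 0.96 and Gsk3b, a kinase that acts on clock proteins, fell by 0.62.

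The difference of responses at 16 h passed for 4 of 20, against 11.4% of all genes (6.17% positive and 5.27% negative), and all 4 were negative: Tef (-1.44 ± 0.24), Sirt1 (-1.04 ± 0.21), Bhlhe41 (-2.41 ± 0.64) and Rora (-0.85 ± 0.21). The level of Tef was 5.14 ± 0.28 (SD) with doxorubicin and 5.24 ± 0.19 with PBS in Top2b-/- cells. Under PBS at 16 h, Hlf, the third PAR bZIP factor, was lower in Top2b-/- cells by 1.30 ± 0.18 on the log2 scale (adjusted p = 0.00189, limma), at -0.19 ± 0.14 (SD), against 1.11 ± 0.31 in WT cells. Arntl2 was lower there too, by 1.07.

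**Figure D5:**
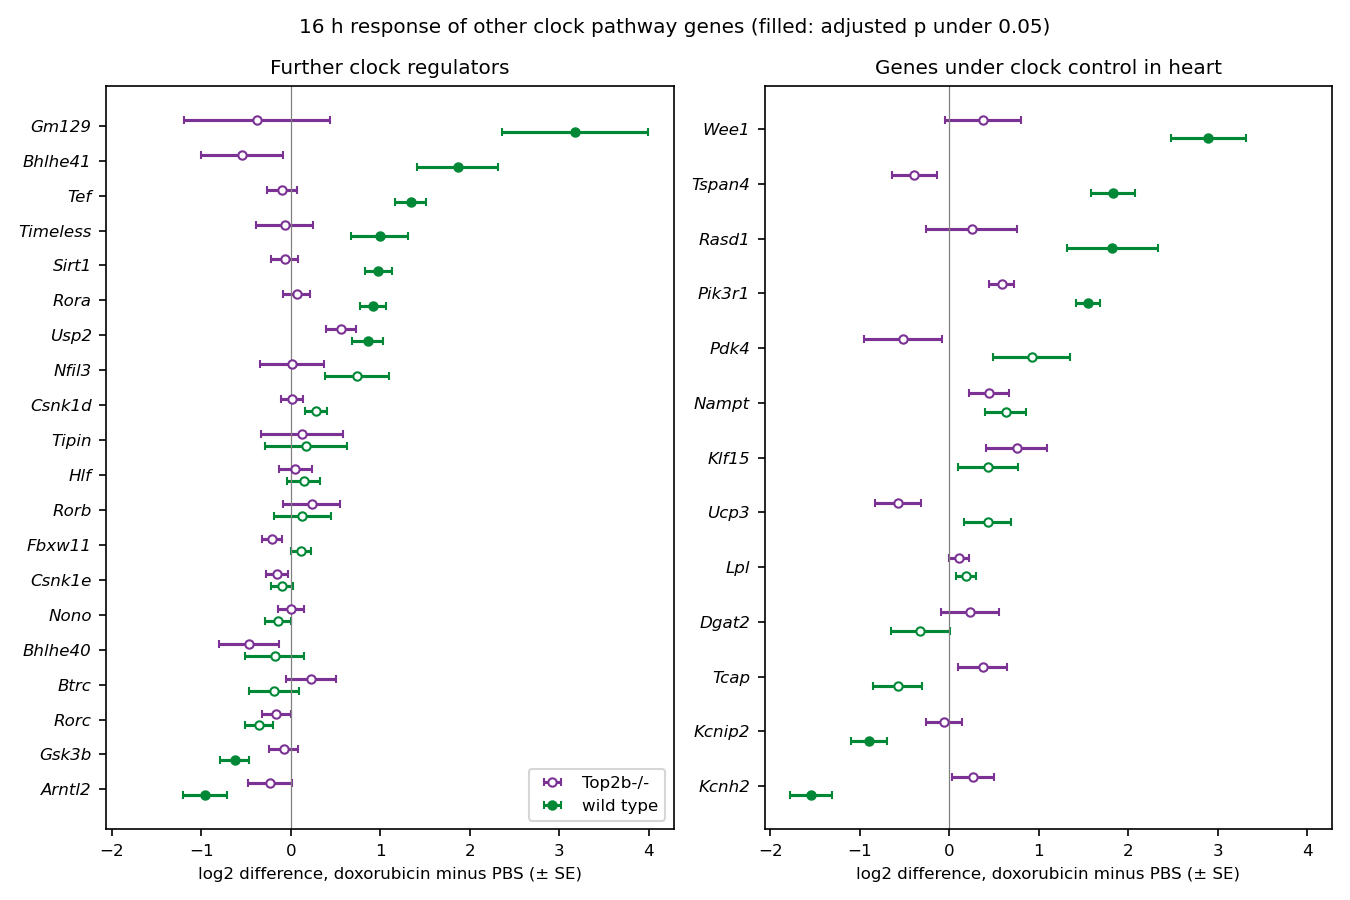
Log2 difference between doxorubicin and PBS at 16 h for 20 further clock regulators (left) and 13 genes under clock control in the heart (right), in Top2b-/- and WT cardiomyocytes. Points are limma estimates from 3 arrays a group with SE bars, filled where the adjusted p was under 0.05. The filled points, 9 on the left and 6 on the right, are all WT.

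Of 13 genes listed as under clock control in the heart, 0 were called with doxorubicin in Top2b-/- cells at 16 h, as were 0% of all genes. In WT cells at 16 h 4 of the 13 rose and 2 fell with doxorubicin, against 13.7% of all genes higher and 14.1% lower. Wee1, the kinase that restrains entry into mitosis and that has E-boxes under CLOCK and ARNTL, rose by 2.89 ± 0.42 (adjusted p = 0.000928, limma), to 1.09 ± 0.73 (SD) with doxorubicin, against -1.81 ± 0.25 with PBS. Pik3r1, a subunit of PI3 kinase, rose by 1.55 ± 0.14 (adjusted p = 7.1e-05), Tspan4 by 1.83 ± 0.25 and Rasd1 by 1.82. The ion channel genes Kcnh2 (-1.54 ± 0.23, adjusted p = 0.00118) and Kcnip2 (-0.89 ± 0.20, adjusted p = 0.00854) fell (limma).

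For 4 of these 13 genes the difference of responses at 16 h passed, against 11.4% of all genes, namely Wee1 (-2.52), Tspan4 (-2.22), Pik3r1 (-0.97) and Kcnh2 (1.81). Per1 can be set beside 8 glucocorticoid-responsive genes. In Top2b-/- cells at 16 h 0 of the 8 were called with doxorubicin, as were 0% of all genes. In WT cells at 16 h 3 rose and none fell, against 13.7% of all genes higher and 14.1% lower. These were Fkbp5 by 3.14 ± 0.44, Zbtb16 by 2.80 ± 0.37 and Cebpd by 1.86 ± 0.54. The part of glucocorticoids in the Per1 difference was not tested. At 72 h 0 of either clock list were called with doxorubicin in Top2b-/- cells, as were 0% of all genes. In WT cells at 72 h 0 of the 20 regulators and 1 of the 13 clock-controlled genes, Tspan4 (0.97 ± 0.22, adjusted p = 0.0478, limma), changed, against 2.69% of all genes.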

How the data were processed

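RNA of isolated cardiomyocytes was hybridised to 24 Agilent 1-colour arrays, 3 in each of 8 groups named from the sample titles. The authors deposited 1 scanner file per array (Agilent Feature Extraction 10.7.3.1, mm9, per the file headers) with the processed intensity, background-subtracted and not normalized between arrays, per the file headers. A deposited value table holds a linear ratio, each processed intensity over the median of its array, as a comparison of its columns with the scanner files showed; it served as an alternative.

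Processed intensity was converted to log2 and each array's 75th percentile subtracted, outlier spots (89 to 277 per array) being set to missing. A probe was kept at a time if some group of 3 had it well above background throughout, and each gene was represented by the brightest such probe. limma 3.58.1 in R 4.3.3 fitted the 4 groups of a time together (8 residual degrees of freedom), and all 8 groups (16 degrees of freedom) for the WT response between times. Benjamini-Hochberg adjustment covered 18751 genes at 16 h, 19672 at 72 h and 20050 in the joint fit, with a threshold of 0.05. Bounds set the bright group's mean against the lowest signal well above background on the dim arrays. The number of arrays limits precision. The fit was tested on simulated data. Genes of the further lists were named for the 4 smallest adjusted p per comparison, and others after their values were seen; 1 gene of each of the clock lists beyond the 10 members is not reported here and was left out of their counts and medians.

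The members and lists were chosen with earlier results of these data known. Same-numbered arrays deviated together (every correlation over 0.1) for doxorubicin against PBS in Top2b-/- cells at 16 h (0.169, 0.286 and 0.115) and 72 h (0.417, 0.273 and 0.729) and for genotype under PBS at 72 h (0.371, 0.353 and 0.548). The other pairs of groups did not meet that rule. For WT doxorubicin against PBS at 72 h replicate 3 alone missed it, with correlations of 0.485, 0.0014 and 0.419 for replicates 2, 3 and 4. Alternatives were another background (normexp with an offset of 50), quantile normalization, the value table, another filter and another probe rule. Further alternatives were slide, replicate and Y-linked terms, the genotype characteristic, and leaving out arrays. The fit without the 4 arrays whose genotype fields disagree was added after the data were seen.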

Additional observations from a re-analysis of the deposited data

Results flagged for a closer look

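The doxorubicin responses of the genotypes at 16 h differed by a direct test (limma, Top2b-/- response minus WT response) for Per2 (-2.95) and Cry2 (-1.31) among the 10 clock genes. The Per2 value is a fitted one that rests on WT PBS arrays of 16 h not well above background. With a normexp background (offset 50) the Per2 value was -0.66. Among further clock regulators it differed for Bhlhe41 (-2.41), Tef (-1.44), Sirt1 (-1.04) and Rora (-0.85). Among genes under clock control in the heart it differed for Wee1 (-2.52), Tspan4 (-2.22), Pik3r1 (-0.97) and Kcnh2 (1.81).

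The WT response differed between 72 h and 16 h (limma, 72 h minus 16 h) for Per2 (-2.67) and Cry2 (-1.02), for the regulators Gm129 (-4.52), Bhlhe41 (-2.55), Tef (-1.73) and Usp2 (-1.47), and for the clock-controlled Wee1 (-2.45) and Pik3r1 (-2.14). The Per2 and Gm129 values here rest on the same WT PBS arrays, and with a normexp background (offset 50) Per2 was -0.47. Groups of 3 are too small for a test of single outlying arrays.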

How the results depend on the processing

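The 3 clock genes that rose (Per2, Per1 and Cry2) and Nr1d1, which fell, in WT cells at 16 h passed under every alternative but the genotype characteristic, which left 0, and Nr1d1 on arrays of the same Y-linked status; leaving out 1 array at a time gave 4 to 5. For the difference of responses at 16 h the genotype characteristic left 0 of the 2, and leaving out 1 array gave 2 to 4. For the WT response between times, 1 of 2 passed with a normexp background, with no filter and with the mean of kept probes, 0 with the genotype characteristic, and 1 to 2 without 1 array. In WT cells at 72 h the first slide alone gave 1, and leaving out 1 array gave 0 to 1. For genotype under PBS at 16 h, 1 of 2 passed with a normexp background, the deposited value table, no filter, the mean of kept probes, the slide block, the Y-linked covariate, the first slide alone and arrays whose genotype fields agree, 0 with the genotype characteristic, and 1 to 2 without 1 array. At 72 h, 0 of 1 passed with the value table, no filter, the mean of kept probes, arrays of the same Y-linked status and the first slide alone, and 0 to 1 without 1 array. With the replicate number as a block, the count of clock genes called stayed at 4, 2, 2, 2 and 1 where it was above 0 and at 0 elsewhere, while calls over all genes for genotype under PBS at 72 h were 909, against 423, for WT doxorubicin at 72 h 3289, against 530, and for the WT response between times 1913, against 1122. Counts over all genes also moved with the alternatives and without single arrays: 1 to 3289 for WT at 72 h (530 reported, and 1 without WT doxorubicin replicate 3 or WT PBS replicate 3), 208 to 909 for genotype under PBS at 72 h (423), 0 to 6646 for WT at 16 h (5206 reported), 0 to 4746 for the difference of responses at 16 h (2144), 0 to 3825 for genotype under PBS at 16 h (2335) and 0 to 2973 for the WT response between times (1122). The causes were not tested. Genotype under PBS at 16 h could not be fitted on arrays of the same Y-linked status, nor the difference of responses at 16 h within a slide, and the other slide at 16 h holds 1 Top2b-/- PBS array. Where a setting leaves 1 array in a group, that array is assumed to vary like the other groups. Low signal over background limits Per2, Per3 and Cry1 at 16 h and Cry1 at 72 h.

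Differences that had passed the threshold kept their sign under every alternative. Others, near 0 or with wide spread, changed sign in 40 values under the alternatives and 57 without 1 array, none of them past the threshold. The totals of 966 and 1104 values from which these come also include the 11 differences that had passed. With a Y-linked covariate, Arntl -0.085 in the Top2b-/- response at 16 h and Arntl 0.33, Cry1 -0.044 in genotype under PBS at 16 h. With arrays of the same Y-linked status, Arntl 0.11 in the WT response at 16 h, Clock 0.0053, Nr1d1 0.058 in the Top2b-/- response at 16 h, Dbp 0.056 in the Top2b-/- response at 72 h, Cry2 0.14, Nr1d1 0.12 in the difference of responses at 72 h and Clock -0.011, Cry1 -0.014 in the WT response between times. With arrays whose genotype fields agree, Cry1 -0.0089 in the WT response at 16 h, Clock 0.059, Nr1d1 0.076 in the Top2b-/- response at 16 h and Nr1d2 -0.17 in the WT response between times. With the deposited value table, Clock 0.093, Cry2 0.070 in the Top2b-/- response at 16 h and Per3 0.030 in genotype under PBS at 72 h. With the genotype characteristic, Cry1 -0.37, Nr1d2 0.081 in the WT response at 16 h, Cry2 0.23, Nr1d2 -0.21 in the Top2b-/- response at 16 h, Nr1d1 -0.025 in genotype under PBS at 16 h, Cry1 0.27, Nr1d2 -0.29 in the difference of responses at 16 h and Clock -0.0051, Nr1d2 -0.35 in the WT response between times. With the mean of kept probes, Cry2 0.0063 in the difference of responses at 72 h and Nr1d2 -0.17 in the WT response between times. With a normexp background, Cry2 0.0070 in the Top2b-/- response at 16 h, Cry1 -0.11 in genotype under PBS at 16 h, Dbp 0.017 in genotype under PBS at 72 h and Cry1 -0.022 in the WT response between times. With the slide block, Arntl -0.081, Cry2 0.021 in the Top2b-/- response at 16 h. With the first slide alone, Clock -0.073, Per2 0.14, Cry2 0.18 in the difference of responses at 72 h. With the other slide alone, Arntl -0.081, Cry2 0.021 in the Top2b-/- response at 16 h. Without 1 array at a time, the lowest and highest values of the differences that changed sign follow. In the WT response at 16 h these were Cry1 -0.17 to 0.31. In the Top2b-/- response at 16 h these were Clock -0.079 to 0.058, Per2 -0.078 to 0.41, Arntl -0.24 to 0.42, Cry2 -0.14 to 0.075, Dbp -0.70 to 0.18 and Nr1d1 -0.25 to 0.058. In the WT response at 72 h these were Per3 -0.75 to 0.13. In the Top2b-/- response at 72 h these were Per2 -0.26 to 0.31, Dbp -0.52 to 0.085, Nr1d2 -0.12 to 0.0088 and Per3 -0.0080 to 0.53. In genotype under PBS at 16 h these were Cry1 -0.26 to 0.24, Per1 -0.23 to 0.43, Nr1d1 -0.0047 to 0.26, Arntl -0.63 to 0.034, Cry2 -0.032 to 0.10 and Dbp -0.31 to 0.58. In genotype under PBS at 72 h these were Per3 -0.50 to 0.27, Cry2 -0.27 to 0.042, Dbp -0.36 to 0.21, Arntl -0.29 to 0.58, Clock -0.11 to 0.24 and Nr1d1 -0.36 to 0.019. In the difference of responses at 72 h these were Clock -0.12 to 0.27, Nr1d1 -0.51 to 0.44 and Cry2 -0.25 to 0.11. In the WT response between times these were Nr1d2 -0.14 to 0.25, Clock -0.043 to 0.28 and Per3 -0.89 to 0.020.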
